A study of Mus musculus with 6 samples.

Results

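The loci of 9 genes of the Nodal and BMP signalling pathways (Nodal, Lefty1, Lefty2, Tdgf1, Smad7, Bmp4, Id1, Id2 and Id3) were examined in a list of open chromatin regions of mouse embryonic stem cells (mESCs). The 9 genes were chosen by name, out of 21774 protein-coding RefSeq genes on GRCm38, the assembly that mm10 names. For each gene, peaks within 1 kb of a transcription start site (TSS) were counted as promoter peaks, and all peaks in the gene plus 50 kb on each side were listed as its window. The 9 windows held 62 of the 41014 peaks, and 6 of these lay in the windows of both Lefty1 and Lefty2, which are neighbours.

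The list came from ATAC-seq, an assay that uses a transposase to insert sequencing adapters where DNA is open, of untreated V6.5 mESCs (2 replicates). V6.5 is a mouse embryonic stem cell line, grown in medium with serum and LIF. The labels add irradiated embryonic fibroblasts as feeders, whereas the study's methods name no feeders and add the GSK3 inhibitor CHIR99021 and the MEK inhibitor PD0325901, and which of these applied to the libraries used here is not settled by the sources. The series also has ZBTB21-degron mESCs, in which ZBTB21 carries a tag for auxin-induced degradation, at 0 h and at 6 h with a spike-in (2 replicates each), and these were not analysed here. A note on doxycycline treatment of degron cells stands in the labels of all 6 samples, the untreated ones included.

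A single list represents both untreated replicates, with a position and a score for each peak and no value per replicate. There was therefore no spread between replicates, no depth per library and no test for any value given here, and every comparison is a description of this list. The score is a whole number between 540 and 953 (median 696), read from its values alone as the scaled score of the irreproducible discovery rate. It ranks how reproducibly a peak was called and is not a level of accessibility. A gene without a peak in the list is not shown to have closed chromatin.

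In the embryonic stem cell, SMAD proteins carry the signals of both pathways to the DNA. Nodal acts through SMAD2 and SMAD3, which bind DNA together with FOXH1, and requires the co-receptor encoded by Tdgf1 (Cripto). Nodal, Lefty1 and Lefty2 are themselves targets, and the Lefty proteins are secreted inhibitors of Nodal, so that ligand and inhibitor are induced by the same signal. BMP4 acts through SMAD1, SMAD5 and SMAD9, whose best known targets are Id1, Id2 and Id3, inhibitors of basic helix-loop-helix transcription factors that help to hold mESCs in the undifferentiated state. Smad7 encodes an intracellular inhibitor of both pathways.

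Of all protein-coding genes, 29.9% had a promoter peak, and the median window held 4 peaks. Of 10 genes that mark embryonic stem cells, 5 had a promoter peak (Pou5f1, Nanog, Zfp42, Dppa5a and Sall4). Their windows held a median of 8 peaks. Of 10 fibroblast genes, which feeder cells, where present, could contribute, 2 had one (Thy1 and Pdgfra), with a median of 0.5 peaks per window. Sox2, Esrrb, Klf4, Tfcp2l1 and Dppa4 had no promoter peak, although mESCs are known to express these genes. No peak was listed in the windows of the fibroblast genes Twist1, Twist2, Prrx1, Dcn and Lum. The part of feeder cells in the peaks of the 9 genes was not tested.

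The sequences printed next hold short runs of letters from the windows of the Id, Lefty and Bmp4 genes. They are shown here because the description of those loci below returns to them. They were read from the GRCm38 genome and are written 5′ to 3′. The first set holds GGCGCC and GTCT with 5 bases between them (searched on both strands, and containing the shorter GGCGCC), a composite known as the BMP response element. Capitals mark its fixed letters. The Id1 stretch is chr2:152739428-152739527 (plus strand) and lies in no peak. The Id2 stretches are chr12:25093001-25093100, in a peak, and chr12:25098811-25098910, in no peak, both on the minus strand. The Id3 stretch is chr4:136140497-136140596 (plus strand), in a peak.
Id1, 3.2 kb downstream of the TSS, outside peaks: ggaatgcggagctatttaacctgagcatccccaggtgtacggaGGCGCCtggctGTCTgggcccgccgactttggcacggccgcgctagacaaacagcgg
Id2, 3.0 kb downstream of the TSS, in a peak: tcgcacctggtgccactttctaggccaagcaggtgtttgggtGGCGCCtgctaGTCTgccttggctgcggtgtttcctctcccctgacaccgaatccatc
Id2, 2.8 kb upstream of the TSS, outside peaks: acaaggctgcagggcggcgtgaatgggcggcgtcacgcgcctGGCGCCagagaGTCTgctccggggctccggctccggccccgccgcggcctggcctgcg
Id3, 3.3 kb upstream of the TSS, in a peak: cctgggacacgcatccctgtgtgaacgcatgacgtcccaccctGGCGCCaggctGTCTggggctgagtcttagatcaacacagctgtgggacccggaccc

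The second set is shown because 2 peaks, 1 upstream of each Lefty gene, held the same FOXH1-type string (TGTGGATT, both strands, a stricter form of TGTNNATT) more than once. This string was picked after the sequences had been seen. The Lefty1 stretch is chr1:180924784-180924914 (plus strand), the Lefty2 stretch is chr1:180888863-180889013 (minus strand) and the Bmp4 stretch is chr14:46418638-46418705 (minus strand). The last stretch, chr1:180889273-180889372 (plus strand), is from the same Lefty2 peak and holds the SMAD palindrome GTCTAGAC. Capitals mark TGTGGATT in the first 3 stretches and GTCTAGAC in the last.
Lefty1, 10.2 kb upstream: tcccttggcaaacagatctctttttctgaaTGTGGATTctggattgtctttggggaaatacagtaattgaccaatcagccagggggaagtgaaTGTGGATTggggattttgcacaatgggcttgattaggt
Lefty2, 4.2 kb upstream: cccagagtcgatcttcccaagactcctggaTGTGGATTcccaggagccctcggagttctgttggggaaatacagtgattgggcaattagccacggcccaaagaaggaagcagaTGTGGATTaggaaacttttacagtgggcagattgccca
Bmp4, 28 kb upstream: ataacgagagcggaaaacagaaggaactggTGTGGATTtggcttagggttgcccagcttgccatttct
Lefty2, 3.8 kb upstream: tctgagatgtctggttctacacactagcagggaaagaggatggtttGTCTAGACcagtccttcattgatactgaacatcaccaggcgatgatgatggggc

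A promoter peak was listed for 5 of the 9 genes (Nodal, Lefty1, Bmp4, Id1 and Id3), against 29.9% of all protein-coding genes. With only peaks above the list median score counted, 2 of the 9 had one (Lefty1 and Id1), close to the 19.4% of all genes. Lefty2, Tdgf1, Smad7 and Id2 had no promoter peak of any score. Closest to the 1 kb limit were Bmp4, whose peak began 945 bp from the TSS, and Id2, whose nearest peak began 2747 bp away. The median distance from TSS to nearest peak was 945 bp for the 9 genes and 8700.5 bp for all genes. Tdgf1, at 13928 bp, was the only one of the 9 above that genome-wide median.

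**Figure D1:**
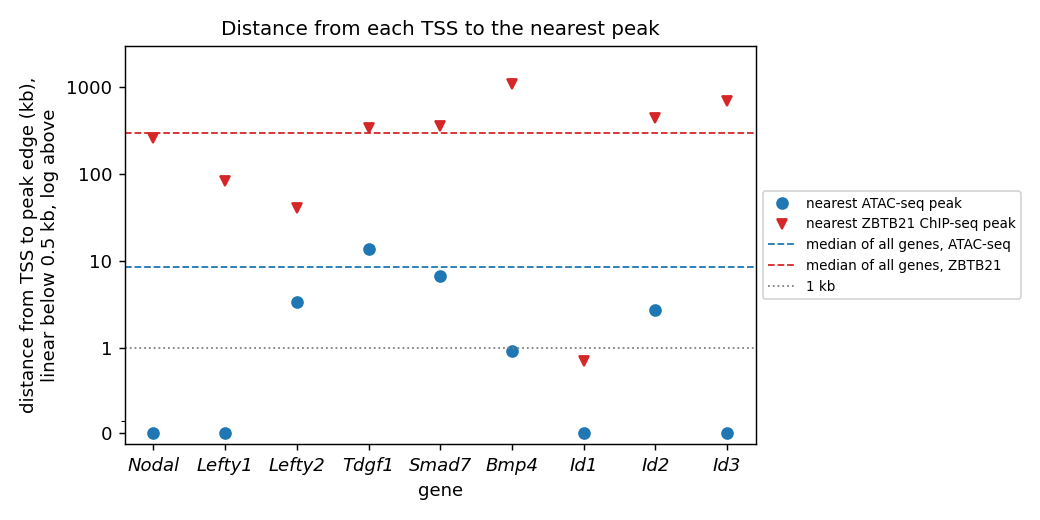
Distance in kb (linear below 0.5 kb, logarithmic above) from the TSS of each of the 9 genes to its nearest ATAC-seq peak (circles) and nearest ZBTB21 ChIP-seq peak (triangles), with dashed lines at the medians of all protein-coding genes. The TSSs of Nodal, Lefty1, Id1 and Id3 lay inside an ATAC-seq peak (0 kb), while Id1 alone had a ZBTB21 peak within 1 kb.

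The windows were richer in peaks than the median window. They held 12 peaks for Nodal, 10 for Lefty1, 9 for Id1, 7 each for Lefty2, Smad7 and Id3, 6 for Tdgf1, and 5 each for Bmp4 and Id2. The median was 7, beside 4 for all genes (25th percentile 1, 75th percentile 6). All 9 windows thus exceeded the median of 4. Per 100 kb, which takes gene length into account, the values ran from 4.67 (Bmp4) to 11.2 (Nodal), with a median of 6.60 beside 2.59 for all genes. Of all protein-coding genes, 96.5% had fewer peaks in the window than Nodal and 59.3% had fewer than Bmp4 or Id2.

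**Figure D2:**
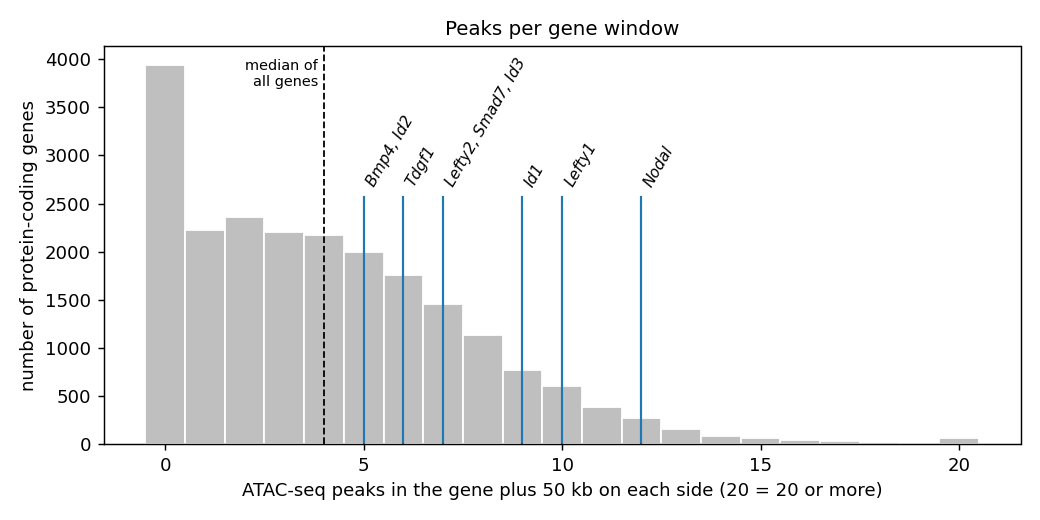
Number of protein-coding genes (bars) by the count of ATAC-seq peaks in the gene plus 50 kb on each side, with the 9 genes marked by lines and the median of all genes (4) dashed. The 9 genes sat between 5 (Bmp4 and Id2) and 12 (Nodal), above the median of all genes.

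The 62 peaks scored between 561 and 909, with a median of 724 beside 696 in the whole list, and 37 of them were above that list median. They were 197 to 1510 bp wide (median 603 bp, beside 547 bp). Most were not next to the genes that defined the windows. For 17 of the 62 the nearest TSS belonged to 1 of the 9 genes, and for 45 it belonged to another gene. The 5 promoter peaks of the 9 genes had a median score of 675, beside 729 for the promoter peaks of all genes. Lefty1 (760) and Id1 (763) lay above the list median, and Nodal (675), Id3 (625) and Bmp4 (616) lay below it. Counting the promoters of every gene, 11 of the 62 peaks lay at one, beside 20% of all peaks.

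**Figure D3:**
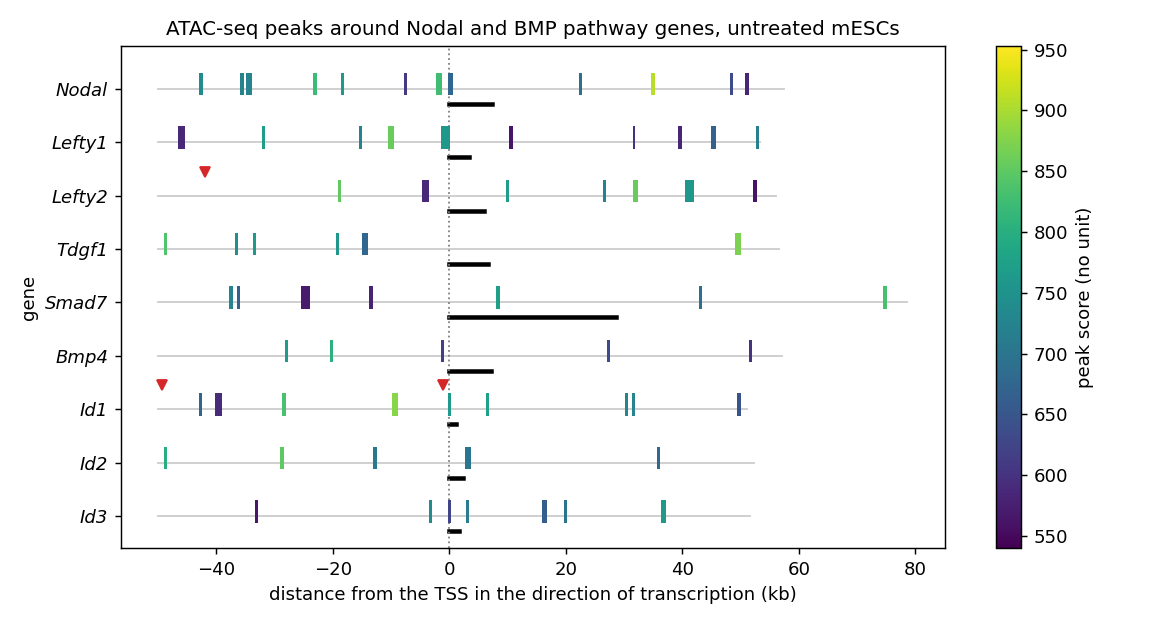
Map of the ATAC-seq peaks in each window, with the distance from the TSS in kb in the direction of transcription on the horizontal axis, peaks coloured by score, gene bodies as black bars and ZBTB21 peaks as red triangles. Peaks are drawn to scale, except that narrow ones are widened to a minimum width. The peak with the highest score (909) lay 34.9 kb downstream of the Nodal TSS, and no peak lay near the TSS of Tdgf1.

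Of the ligands, Nodal had the densest window. Nodal (chr10:61417972-61425338, plus strand) encodes the TGF-beta family ligand that patterns the early embryo. Its promoter peak scored 675, was 747 bp wide and covered the TSS. A peak with a higher score of 827, above 91.6% of the list, lay just upstream, 1226 bp from the TSS and 1139 bp wide (chr10:61415608-61416746). It was wider than 96.5% of the list. A smaller peak lay 7.6 kb upstream, also had Nodal as its nearest gene, scored 608 and was the narrowest of the 62 at 197 bp. The remaining 9 peaks of the window had their nearest TSS in Pald1, Eif4ebp2 or Lrrc20. The highest-scoring of them (909, above 98.9% of the list) covered a TSS of Eif4ebp2, an inhibitor of cap-dependent translation, and a peak between Pald1 and Nodal, 23.1 kb upstream, scored 821.

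The promoter of Nodal is shown because it carries a peak while the stretch before its TSS held none of the strings searched. The Nodal promoter peak as a whole, which reaches past the TSS, held GGGCGG at 4 places. The windows come from RefSeq promoter sequences on GRCm38, which had entries for 5 of the 9 genes (Nodal, Bmp4, Tdgf1, Id2 and Id3), and each printed stretch ends at the last base before the TSS. For contrast the promoters of Id3, which also had a peak, and of Id2 and Tdgf1, which had none, are given with it. They are chr10:61417722-61417971 (Nodal, plus strand), chr4:136143572-136143821 (Id3, plus strand), chr12:25096093-25096342 (Id2, minus strand) and chr9:110946159-110946408 (Tdgf1, minus strand). Capitals mark the GC box GGGCGG (both strands) in Id3 and near the ends of Id2 and Tdgf1, GGCGCC near the start of Id2, and the fixed letters of TGTNNATT, here on the opposite strand, in Tdgf1.
Nodal: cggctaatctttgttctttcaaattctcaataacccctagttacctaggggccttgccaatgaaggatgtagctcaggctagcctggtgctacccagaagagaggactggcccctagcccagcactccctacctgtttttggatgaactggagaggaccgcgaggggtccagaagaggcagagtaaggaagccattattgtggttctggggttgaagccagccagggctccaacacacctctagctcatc
Id3: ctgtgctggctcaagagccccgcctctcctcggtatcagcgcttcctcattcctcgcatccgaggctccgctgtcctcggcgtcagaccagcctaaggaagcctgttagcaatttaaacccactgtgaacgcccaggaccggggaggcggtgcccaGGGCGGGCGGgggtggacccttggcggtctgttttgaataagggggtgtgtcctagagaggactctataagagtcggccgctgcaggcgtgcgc
Id2: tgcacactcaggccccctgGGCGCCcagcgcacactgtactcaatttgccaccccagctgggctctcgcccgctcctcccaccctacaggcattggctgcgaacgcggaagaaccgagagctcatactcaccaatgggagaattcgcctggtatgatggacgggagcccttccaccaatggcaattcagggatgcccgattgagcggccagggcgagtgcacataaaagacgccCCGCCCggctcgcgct
Tdgf1: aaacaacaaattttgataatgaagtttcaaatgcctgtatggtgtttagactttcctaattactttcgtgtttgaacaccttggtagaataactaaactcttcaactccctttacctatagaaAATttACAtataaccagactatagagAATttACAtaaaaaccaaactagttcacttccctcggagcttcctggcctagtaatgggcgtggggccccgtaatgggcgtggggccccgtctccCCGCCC

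In the full windows of 300 bp, GGGCGG occurred in Id3 (2 overlapping matches), Id2, Bmp4 and Tdgf1 (1 each) and not in Nodal, beside 46.2% of 21263 RefSeq promoter windows. TGTNNATT occurred in Tdgf1 alone of the 5, with 2 matches, beside 10.4% of all windows. The Tdgf1 promoter was also the poorest in G and C of the 5, at 41.7%, while Bmp4 had 64%, Id2 63.3%, Id3 60% and Nodal 54%. Among these 5, base composition did not separate the promoters with a peak from those without. Id2, with none, had a ratio of observed to expected CpG of 0.711, close to the 0.704 of Id3, and Nodal, with a peak, had 0.229. Tdgf1, with none, had 0.545, and Bmp4, whose promoter peak did not reach the TSS, had 0.419. Over the 21263 RefSeq promoter windows, which cover 17492 genes, the median was 0.688 where the gene had a promoter peak and 0.452 where it had none.

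Bmp4 (chr14:46383525-46390669, minus strand) had a sparser window of 5 peaks, 2 of them above the list median score. It encodes the ligand that, with LIF, is known to sustain mESCs. Its promoter peak scored 616, was 492 bp wide and did not reach the TSS. The 2 peaks with the highest scores lay in the intergenic region upstream, at 20.2 kb (803) and 28 kb (767), and Bmp4 was the gene nearest to both. The latter held the single TGTGGATT shown above. The remaining 2 lay 27.3 kb (633) and 51.7 kb (601) downstream of the TSS. The higher scores of the Bmp4 locus were thus upstream and away from the promoter.

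Tdgf1 (chr9:110939608-110946158, minus strand), the co-receptor, was not the gene with the nearest TSS for any peak of its window. That window nevertheless held 6 peaks, and 5 of these were above the list median score. On the upstream side they fell in its neighbours: 14.5 kb upstream in intron 2 of 8 of Lrrc2 (674, 1116 bp wide), 19.1 kb upstream in intron 4 of Lrrc2 (760), 33.5 kb upstream in intron 7 of Lrrc2 (762), 36.5 kb upstream in the last exon of Lrrc2 (746) and 48.8 kb upstream in Gm10030 (840). The highest score of the window (871) was downstream, at 49.5 kb in intron 21 of 25 of Als2cl. The gene itself and its first 13.9 kb of upstream sequence held no listed peak.

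Of the inhibitors, Lefty1 and Lefty2 lie on the same strand of chromosome 1 with Lefty2 first, and only Lefty1 had a promoter peak. Lefty1 (chr1:180935022-180938401, plus strand) had the widest of the 62 peaks at its TSS, 1510 bp (chr1:180933577-180935086), wider than 99.3% of the list, with a score of 760. A further peak 10 kb upstream had the higher score of 857, above 95.6% of the list, and was 925 bp wide. These were the only peaks of the window for which Lefty1 was the gene with the nearest TSS. Downstream of the gene the scores lay between 561 and 718, in and beyond Tmem63a.

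Lefty2 (chr1:180893108-180899107, plus strand) had its nearest peak 3443 bp from the TSS, centred 4.1 kb upstream and nearer to the TSS of the uncharacterised gene Gm39714. That peak was 1305 bp wide, wider than 98.3% of the list, but had a score of only 586, above 13.3% of the list. The highest score outside the Lefty1 side of the window was 852, at 18.9 kb upstream, and a narrow peak of 322 bp lay 10 kb downstream of the TSS (769). The upstream peak (857) and promoter peak (760) of Lefty1 lie in the Lefty2 window too, 31.9 kb and 41.2 kb downstream of the Lefty2 TSS. The Lefty1 peak at 10 kb upstream and the Lefty2 peak at 4.1 kb upstream were thus both wider than the list median of 547 bp, with scores of 857 and 586. Not all upstream peaks were broad. The Lefty2 peak at 18.9 kb was 522 bp wide, and a peak 15.2 kb upstream of Lefty1 was 387 bp wide. The narrow peak of 322 bp named above lies 31.9 kb upstream of the Lefty1 TSS.

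The broad upstream peaks of Lefty1 (10 kb) and Lefty2 (4.1 kb) shared sequence. Each held TGTGGATT at 2 places, in the stretches printed above, and 9 peaks of the 41000 on assembled chromosomes held it more than once (0.022%). Because the string was picked after these stretches had been seen, that low share is a description and no test of specificity. In all, 3 of the 62 peaks held the string at least once, the third being the Bmp4 peak 28 kb upstream, beside 2.04% of all peaks. The string itself was not particular to the Lefty genes, since the windows of all 9 genes held it. The Lefty1 window had 5 matches and the Lefty2 window 7, and the same 4 matches, in the 2 broad peaks, were those in peaks for both. The Bmp4 window had 6, with 1 in a peak. The longest run the Lefty stretches had in common was ttggggaaatacagt, 15 bases starting at base 50 of the Lefty1 stretch and base 61 of the Lefty2 stretch. Being picked from these 2 stretches, this run had to occur in both. No other peak held it, but for a run chosen this way that is no test of specificity. GTCTAGAC occurred in 1 of the 62 peaks, the Lefty2 peak, beside 0.605% of all peaks. The looser string TGTNNATT occurred in 18 of the 62 peaks (29%), beside 20.6% of all peaks, and in the central 300 bp of 19.4% of the 62 and 11.4% of all peaks.

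Smad7 (chr18:75367365-75395935, plus strand) had no promoter peak. Its nearest peak lay 6857 bp from a TSS, in intron 2 of 3, with a score of 771 and a width of 659 bp, and was the only peak of the window for which Smad7 was the nearest gene. Upstream, a peak 24.7 kb away was 1495 bp wide with a score of 570, and peaks at 13.5 kb (579), 36.3 kb (670) and 37.6 kb (728) lay in the same intergenic region. Downstream, a peak at 43 kb scored 687. The highest score (833) was 74.8 kb downstream of the TSS in intron 10 of 11 of Ctif. Only 3 of its 7 peaks were above the list median. GTCTAGAC was found 189 bp upstream of the Smad7 TSS, in no listed peak.

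**Figure D4:**
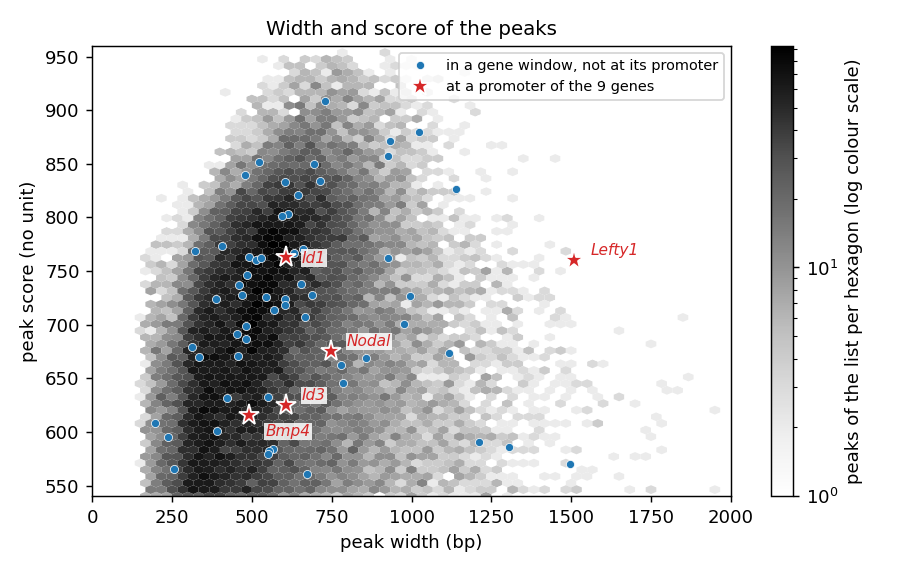
Score against width in bp for all peaks of the list (grey hexagons, darker with more peaks on a logarithmic scale), for the promoter peaks of the 9 genes (red stars, named) and for the other peaks of their windows (blue points). The Lefty1 promoter peak was the widest of the 62 at 1510 bp with a score of 760, while Bmp4 (616) and Id3 (625) had promoter peaks of low score.

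Of the BMP targets, Id1 had the highest promoter score of the 9 genes. Id1 (chr2:152736251-152737410, plus strand) had a peak of 606 bp over its TSS that scored 763. Higher scores were found in its window at 9.4 kb upstream (880, 1022 bp wide, above 97.4% of the list), at 28.4 kb upstream in the last exon of H13 (834) and at 6.5 kb downstream (773). Id1 was the nearest gene for the promoter peak and for those at 9.4 kb and 6.5 kb. The 5 others scored between 591 and 728, with 2 in introns of H13 and 3 in introns of Bcl2l1, which encodes an inhibitor of apoptosis.

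Id2 (chr12:25093799-25096092, minus strand) had no promoter peak, and its nearest peak lay 2747 bp from the TSS, beyond the 3′ end of the gene. That peak was 978 bp wide and scored 701. Farther upstream of the TSS, peaks scored 707 at 12.8 kb, 850 at 28.7 kb and 801 at 48.7 kb, and 1 downstream at 36 kb scored 679. The highest score was thus not that of the nearest peak, which was also the widest, and 4 of the 5 were above the list median.

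Id3 (chr4:136143822-136145392, plus strand) had a promoter peak of 606 bp, the same width as that of Id1, with the lower score of 625, above 25.6% of the list. On both sides of it a peak of higher score lay within 4 kb: 3.2 kb upstream (737, 461 bp wide, in an intron of Gm42329) and 3.1 kb downstream (714, 568 bp wide). Farther downstream, toward the cell cycle regulator E2f2, peaks scored 662 at 16.3 kb, 699 at 19.9 kb and 762 at 36.7 kb. The last was centred on a coding exon of E2f2 and covered an annotated TSS of that gene. A peak 33.1 kb upstream was among the lowest of the 62 at 565.

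The composite of GGCGCC and GTCT was found in the windows of Id1 (1 match), Id2 (2) and Id3 (3) and in none of the other 6. It occurs in the window of 3.8% of all protein-coding genes. All 6 matches lay between 971 bp and 4159 bp from the TSS, and all 6 had GTCT downstream of GGCGCC in the direction of transcription. The match of Id2 at 3.0 kb downstream and that of Id3 at 3.3 kb upstream lay inside a peak, beside 0.0805% of all peaks (33 of 41000) and 0.344% of genes that have such a peak in the window. The match of Id1 at 3.2 kb downstream, that of Id2 at 2.8 kb upstream and those of Id3 at 971 bp and 4.2 kb downstream lay in none. The nearest peak to the Id1 match was 2937 bp away. The shorter GGCGCC occurred in 11.3% of the 62 peaks and 11.1% of all peaks.

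**Figure D5:**
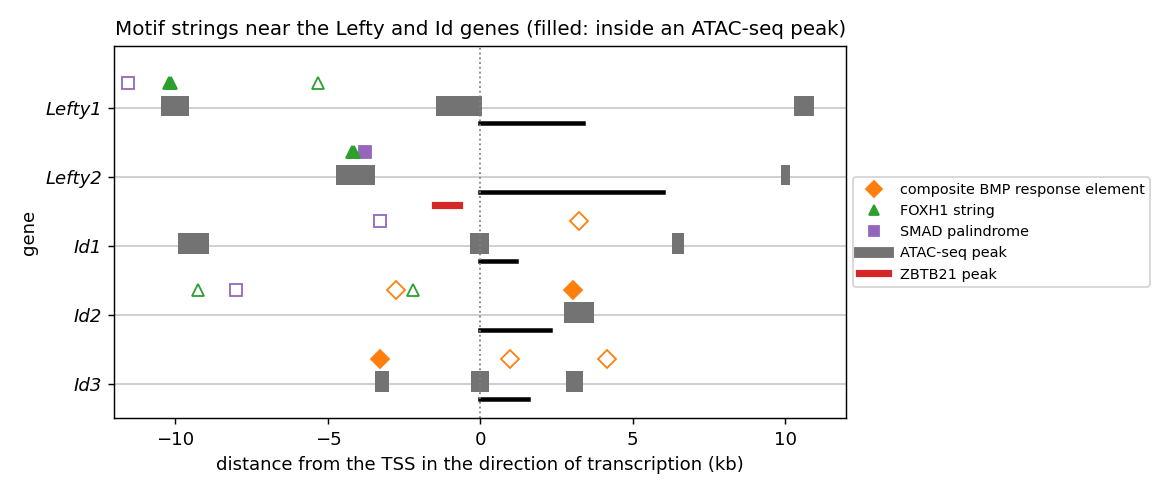
Positions of the composite BMP response element (diamonds), TGTGGATT (triangles) and GTCTAGAC (squares) within 12 kb of the TSSs of the Lefty and Id genes, filled where the string lies inside an ATAC-seq peak (grey boxes), with gene bodies in black and the ZBTB21 peak of Id1 in red. Id2 and Id3 each had 1 composite inside a peak, Id1 had 1 outside peaks, and the peaks 10 kb and 4.1 kb upstream of Lefty1 and Lefty2 held TGTGGATT.

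ZBTB21, the zinc finger protein whose role in cohesin binding the study addresses, had 1827 ChIP-seq peaks in mESCs. None of the 62 ATAC-seq peaks overlapped 1 of them by at least 1 bp, beside 1.98% of all ATAC-seq peaks. Of the 9 genes, Id1 alone had a ZBTB21 peak within 1 kb of the TSS, beside 6.17% of all genes. It was 776 bp wide, lay from 1491 bp to 716 bp upstream of the Id1 TSS, and stood 394 bp from the Id1 promoter ATAC-seq peak. Within 50 kb, Id1 had 2 ZBTB21 peaks and Lefty2 had 1, so that 2 of the 9 genes had any, beside 21.9% of all genes. Neither share is far from that of all genes. Otherwise the nearest ZBTB21 peak was between 83.1 kb (Lefty1) and 1081.6 kb (Bmp4) away, and the median of the 9 genes (343635 bp) was longer than that of all genes (296922 bp).

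Id1 was also the only one of the 9 genes inside a ZBTB21-responsive loop, a class of 500 long Hi-C loops that the study chose for holding ZBTB21 peaks together with cohesin peaks that weakened after ZBTB21 loss, so that ZBTB21 peaks in such a loop are part of its definition. Of all protein-coding genes, 15.9% lay in 1 of these loops. None of the 9 lay in a less-responsive loop, beside 6.24% of all genes. The Id1 loop spanned 850 kb, with the Id1 TSS 11.3 kb from the inner edge of the first anchor and 788.8 kb from the second. The loop held 46 ATAC-seq peaks, 2 ZBTB21 peaks and 20 protein-coding genes, 12 of them with a promoter peak. Among its 46 peaks, 11 scored above the Id1 promoter peak, and the median score in the loop was 708. Of the 62 peaks of the 9 windows, 7 lay in responsive loops, all in the Id1 window, beside 19.4% of all peaks, and none in less-responsive loops, beside 2.71%.

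Among 59 other genes of the pathways, 17 (28.8%) had a promoter peak, close to the 29.9% of all genes, and the median window held 4 peaks, as for all genes. Among ligands 3 of 13 had one (Bmp6 880, Gdf3 724 and Gdf1 640), and among receptors and co-receptors 2 of 11 did (Bmpr1b 818 and Bmpr2 586), each value being the score of the promoter peak. Of the Smads and their cofactors 4 of 8 had one, with the highest scores at Smad6 (799), an inhibitor of BMP signals, Smad3 (701) and Foxh1 (655), the DNA-binding partner of SMAD2 and SMAD3. Of the antagonists 4 of 14 did, with the highest scores at Smurf2 (790), a ubiquitin ligase that targets SMADs and receptors, and Chrd (710), a secreted BMP antagonist. Of the proteases that process ligands 1 of 2 had one (Pcsk6, 728). Of the other targets 3 of 11 did, among them Id4 (925) and Dusp9 (710), and the Id4 score was above those of all 62 peaks of the 9 windows.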

How the data were processed

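ATAC-seq peaks of untreated V6.5 mESCs were taken as the authors deposited them, as mm10 coordinates with a score per peak and both replicates in 1 list. The submitters' processing notes name cutadapt 2.6, Bowtie2 2.3.5.1 and MACS2 2.1.1. Peak calling settings and any shift of cut sites for Tn5 are not given in the sources used here. ZBTB21 peaks and loop coordinates came from the study's supplementary lists.

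RefSeq genes and TSSs on GRCm38 were used. Peaks were assigned by edge distance to the TSS or by an overlap of at least 1 bp. Windows, strings and GC content were computed with Python 3.11.15, numpy 2.4.6, pandas 2.3.3 and matplotlib 3.10.9. The 14 peaks on unplaced sequences were not searched for strings. Overlap counting was tested on simulated data, and 0 of 1000 queries differed from a direct count. No test was run, because 1 list of 1 condition has no replicate values.

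The members, lists and strings were chosen with earlier results of these data known. Of the pathway list, up to 3 genes with the highest promoter score in each role were named, and some of these are not reported here. Further genes were named as neighbours of a peak.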

Additional observations from a re-analysis of the deposited data

How the results depend on the processing

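Of 26 alternatives over 7 counts, 17 stayed within 1.5 times the value given. Counting only peaks that score above the list median left 2 of the 9 genes with a promoter peak (Lefty1 and Id1), close to the 19.4% of all genes at that setting, 37 peaks in the windows, and 11 of the 59 other pathway genes with a promoter peak. The flank set the window counts: with 20 kb there were 30 peaks and a median of 3 per gene, and with 100 kb there were 98 peaks and a median of 12. Medians of all genes at 20 kb and 100 kb are not given here, so the comparison with all genes rests on 50 kb. A ZBTB21 peak within 1 kb instead of an overlap gave 1 of the 62 peaks, at Id1. When a gene had to lie in a loop anchor, 0 of the 9 genes were in a responsive loop. With a TSS distance of 0.5, 2.5 and 5 kb, 4, 5 and 7 of the 9 genes had a promoter peak, beside 27.9%, 34.9% and 41% of all genes. No paired analysis was possible because the peak list pools the untreated samples, with nothing recorded per replicate, and for the same reason no replicate could be left out. TGTGGATT and the shared Lefty run were chosen after seeing the data. Depth is unknown, so a gene without a listed peak may have an open region below the threshold of the list.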

Other observations

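The composite of GGCGCC, 5 bases and GTCT was also found in the windows of 7 of the 59 other pathway genes, namely Smad2, Grem1, Skil, Id4, Eomes, Msx1 and Msx2, and in a listed peak in 0 of them. Msx1 and Msx2 encode homeobox transcription factors and Id4 is the fourth member of the Id family. Skil, which encodes a repressor of SMAD activity, was the 1 gene of the 59 with a ZBTB21 peak within 1 kb of a TSS. Of the 59 genes, 9 lay in a ZBTB21-responsive loop, beside 15.9% of all genes, and 6 in a less-responsive loop, beside 6.24% of all genes.

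Over whole peaks, the GC box GGGCGG occurred in 45.2% of the 62 peaks and 31.4% of all peaks, the octamer ATGCAAAT in 8.06% and 4.34%, and the SOX string CATTGTT in 3.23% and 8.34%. In the central 300 bp of each peak, which gives every peak the same length, the shares were 33.9% and 22.3% for the GC box, 3.23% and 2.85% for the octamer and 0% and 5.05% for the SOX string. The GC box was thus more frequent in the 62 peaks at both lengths (28 whole peaks and 21 central stretches). The octamer shares lay close together at the shorter length. For the SOX string the counts were 2 and 0 of the 62, too few to read a difference from. Median GC content was 53.8% in the 62 peaks and 52.1% in all peaks, and its part in these shares was not tested.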
